A study of Homo sapiens with 6 samples.

Results

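The aminoacyl-tRNA synthetases and the genes of the amino acid response were followed in HepG2, an established human liver cancer line, with and without FN3K, the kinase that phosphorylates sugars attached to proteins. Of 6357 loci in the expression table, 39 were taken by gene name, using 21 synthetases, 8 regulators of the stress response (kinases of the translation factor eIF2, transcription factors and stress-induced genes) and 10 enzymes of amino acid and one-carbon metabolism. The rule used gene names alone, though it was chosen with earlier results of these data known, and all 39 genes passed into the test. CHAC1, TRIB3, PSPH, MTHFD2, GPT2, the kinases EIF2AK2 and EIF2AK3, and the cytosolic synthetases for alanine, histidine, asparagine, serine and tyrosine were not analysed here.

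The study asked which pathways change when FN3K is removed by CRISPR, and sequenced mRNA from 3 plates of parental (WT) cells and 3 plates of FN3K knock-out (KO) cells, grown in the same medium with serum and no further treatment. How many KO clones the plates represent is not given in the sources used here, so an effect of the knock-out and a difference between clones cannot be told apart. The p-values measure only the spread between plates, which may be technical. In these bulk libraries, less of an mRNA per cell and fewer cells carrying it cannot be told apart either.

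Each synthetase joins 1 amino acid to its tRNA, and most amino acids are served by separate enzymes in the cytosol and in mitochondria. When uncharged tRNA builds up, the kinase GCN2 (EIF2AK4) phosphorylates eIF2, general translation slows, and the mRNA of the transcription factor ATF4 is translated more. ATF4 with its partners then raises genes for amino acid synthesis, uptake and tRNA charging, and other eIF2 kinases feed into the same response from haem shortage (EIF2AK1) or stress in the endoplasmic reticulum. Liver cells use the serine and one-carbon branch of this programme to supply glycine, folate units and cysteine.

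Levels are given as FPKM, a fragment count divided by transcript length and library size, so that levels may be set side by side between genes, and values follow the order of replicates 1, 2 and 3. Fold changes are KO minus WT on the log2(FPKM + 1) scale, which understates changes of low genes, and a gene is said to rise or fall where limma gave a Benjamini-Hochberg adjusted p under 0.05 over all 6357 loci. Sequencing depth is unknown. The FPKM of all loci summed to between 289983 and 314164 in the 6 libraries, and log2 values correlated across loci at 0.980 to 0.983 within groups and 0.923 to 0.931 across them. FN3K itself stood at 27.7, 21.9 and 23.2 FPKM in WT and at 0.782, 1.03 and 0.704 in KO. Of the 8 hepatocyte markers found in the table, 5 rose, none fell and 3 did not pass, while 21.2% of all loci rose and 36.5% fell. All 8 lay between 53.1 and 6533 FPKM in every library, but some shifted strongly. Mean FPKM went from 55.1 in WT to 419 in KO for TTR and from 1537 to 6206 for AFP. Of 9 markers listed for other cells the table held SOX9 (84.3 to 90.3 FPKM in WT and 76.3 to 83.7 in KO, adjusted p = 0.13). Over all loci the median log2 fold change was -0.14, and the changes that follow are to be read against it.

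In FN3K KO cells 23 of the 39 genes fell and 4 rose, while 12 did not pass the test. Of all loci, 36.5% fell and 21.2% rose. The median log2 fold change of the 39 genes was -0.35, with a range from -1.32 (WARS) to 0.43 (ATF3). For 27 of them every KO library lay below every WT library, which held for 39.8% of all loci, and for 4 every KO library lay above, which held for 23.6%. Most of the shifts were small on the log2 scale. Only WARS and DDIT3 passed an unadjusted p under 0.05 with a fall beyond 1, a limit passed downward by 3.32% of all loci, and none of the 39 passed it upward, against 4.31% of all loci. The FPKM of the 39 genes summed to 1997, 2027 and 2049 in WT and to 1616, 1630.3 and 1603 in KO.

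**Figure D1:**
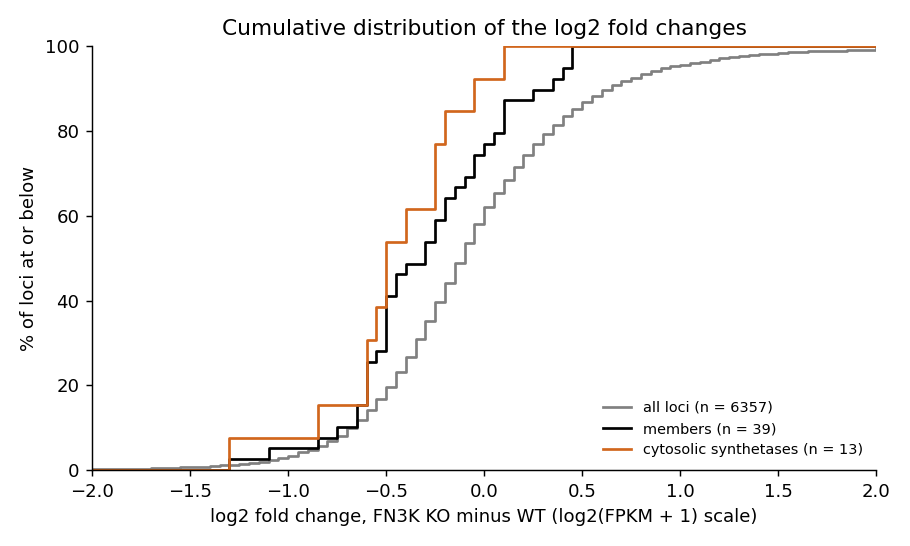
Cumulative share (%) of loci at or below each log2 fold change (KO minus WT), for all 6357 loci, the 39 genes (members) and the 13 cytosolic synthetases, in steps of 0.05 and with the axis ending at 2 on either side. The 39 genes (median -0.35) and the cytosolic synthetases (median -0.52) lie mostly to the left of all loci (median -0.14).

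Among the 8 regulators 4 fell, 1 rose and 3 did not pass, against the 36.5% of all loci that fell and the 21.2% that rose. For 7 of the 8 every KO library lay below every WT library, which held for 39.8% of all loci. The regulators came first in the pathway and were led by ATF4, by far the most abundant of them. ATF4 (chromosome 22, 39519695 to 39522685, plus strand; GENCODE version 29 on GRCh38) stood at 305, 314 and 318 FPKM in WT and at 238, 220.4 and 224 FPKM in KO. All KO libraries lay below all WT libraries, and the KO mean of FPKM was 27.2% lower. Its log2 fold change was -0.46 ± 0.06 (SE, n = 3 per group; adjusted p = 1.9e-04). This is the mRNA level, while ATF4 is controlled largely at translation, which was not measured.

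DDIT3 (chromosome 12, 57516588 to 57521737, minus strand), which encodes the pro-apoptotic factor CHOP, had the deepest fall of the regulators. It held 19.7, 27.5 and 26.1 FPKM in WT against 8.63, 13.3 and 10.2 FPKM in KO, and every KO library was below the lowest WT library. The log2 fold change was -1.12 ± 0.16 (adjusted p = 4.2e-04), and the mean of FPKM was 56.0% lower. The 3′ ends of DDIT3 and MARS overlap on opposite strands over 355 exon bases, and the strand setting of the libraries is not given in the sources used here. Of the 39 genes, 20 share exon bases with another annotated gene on either strand. On the other strand these include DDIT4 (847 bases, DDIT4-AS1), ATF5 (626, NUP62), EIF2AK1 (532, AIMP2) and MARS (519, ARHGAP9). SESN2, a leucine sensor that restrains mTORC1, read 16.1, 18.8 and 18.7 FPKM in WT but 10.7, 13.6 and 9.93 FPKM in KO, with no overlap. The change of SESN2 was -0.61 ± 0.11 (adjusted p = 0.002).

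DDIT4, another restraint on mTORC1, was uneven among the KO plates. WT libraries held 44.6, 45.0 and 46.8 FPKM of it, and KO libraries 28.8, 41.5 and 25.6 FPKM. The groups did not overlap, but KO replicate 2 lay close to WT. The log2 fold change of -0.52 ± 0.15 passed the test (adjusted p = 0.014), and failed it without KO replicate 1 (-0.47) or without WT replicate 3 (-0.50). KO replicate 2 was the highest of the KO libraries for 4 of the 8 regulators (DDIT3, DDIT4, SESN2 and ATF3), and for 2887 of the 6357 loci.

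ATF3, a stress-induced factor that acts downstream of ATF4, was the single regulator that rose. Its levels were low, at 5.38, 7.01 and 8.27 FPKM in WT and 9.29, 10.8 and 8.53 FPKM in KO. The lowest KO library stood just above the highest WT library. The log2 fold change was 0.43 ± 0.15 (adjusted p = 0.032). The call was lost when KO replicate 1 (0.44), KO replicate 2 (0.34), WT replicate 1 (0.28) or WT replicate 2 (0.45) was left out, and also in limma without the variance trend, while the direction held.

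The other 3 regulators did not pass the test. ATF5, a further factor of this family, averaged 8.69 ± 1.25 FPKM in WT and 6.63 ± 1.04 in KO (SD, n = 3), at a log2 fold change of -0.35 and an adjusted p of 0.051. For the kinases, EIF2AK1 averaged 45.1 ± 0.705 against 42.2 ± 1.72 FPKM (-0.10 ± 0.05, adjusted p = 0.15), and EIF2AK4 averaged 12.4 ± 0.439 against 11.0 ± 0.626 FPKM (-0.16 ± 0.08, adjusted p = 0.1). In all 3 genes the KO libraries lay below the WT libraries without overlap, by amounts near the median shift of all loci for the kinases. In a linear model with the library adjustment that Ballgown applies, DDIT3 (-0.64, adjusted p = 0.12), SESN2 (-0.33, adjusted p = 0.25) and DDIT4 (-0.25, adjusted p = 0.61) no longer passed. In that model ATF4 (-0.45) and ATF3 (0.86) did. It takes the spread from each gene alone. By it 1127 loci passed in place of 3670, and 8.20% of all loci fell.

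**Figure D2:**
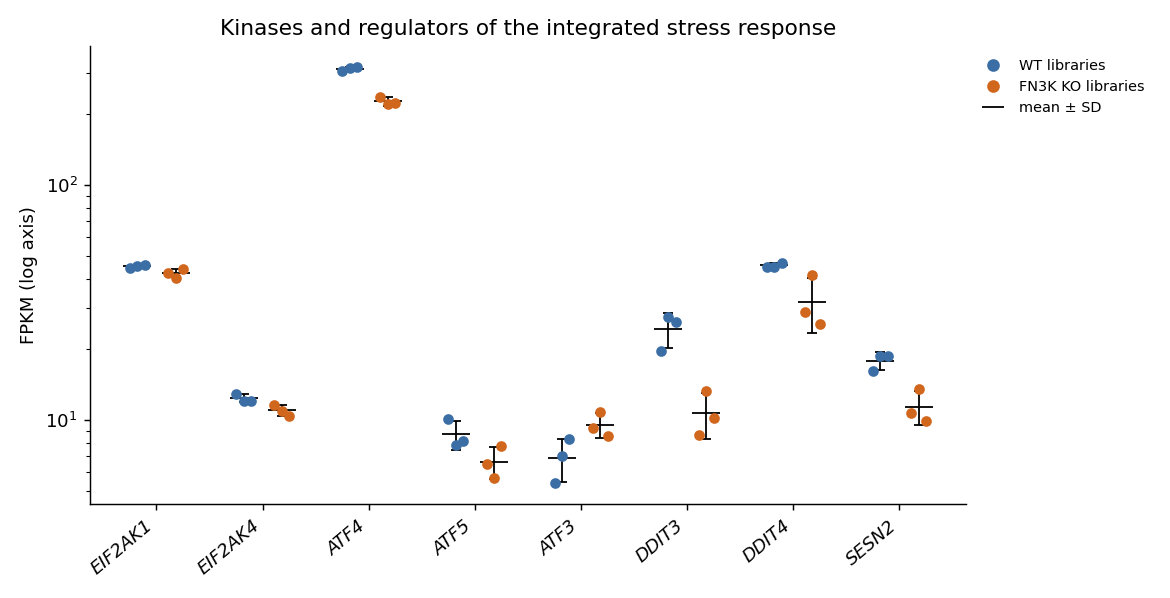
FPKM of the 8 stress response regulators in each library (points, log axis; WT and FN3K KO), with horizontal bars at the group means and vertical bars of 1 SD. ATF4 sits near 312 FPKM in WT and 227 in KO, DDIT3 shows the widest gap, and ATF3 is higher in KO.

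ATF4 joins partners of the C/EBP family at an element with the core TGATGNAA, so the sequences around the starts of the genes were searched for it on both strands (TTNCATCA on the other). RefSeq windows on GRCh38.p14, from 250 bases before to 50 after each annotated start, were given for 33 of the 39 genes (50 windows). Of these genes 9 held a match, or 27.3%, against 102 of 3931 genes named in the table (2.59%) and 4.46% of all 27305 genes with a window. By window, 3.62% of all 35116 held one. The 9 genes were ASNS, MTHFD1L, CARS, GARS, IARS, MARS and TARS, all of which fell, ATF3, which rose, and YARS2, which was not called. Of all loci 36.5% fell. Genes with windows but no match fell too, namely WARS, QARS, KARS, EPRS, SARS2, WARS2, CBS, CTH, PSAT1, SESN2, ATF4, DDIT3 and DDIT4. PHGDH, SHMT1 and CARS2, also without a match, rose, and the other genes without a match were not called. Sequence beyond the windows was not searched. The matches are letters in a window and do not show binding. The genes were chosen by name as members of this response, so their higher share of matches is a description and no independent result. The 5 stretches that follow are those of ASNS among the enzymes, 3 of the 4 synthetases whose match lies within 13 bases of a start, and ATF3. Each is written 5′ to 3′ in the direction of its gene with the matched bases in capitals, up to 26 bases before the match, and none runs beyond 10 bases past the start.
ASNS, chr7:97872443-97872502, minus strand, first matched base 68 before the start: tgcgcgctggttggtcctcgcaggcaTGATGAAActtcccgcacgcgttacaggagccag
CARS, chr11:3057418-3057451, minus strand, 2 before the start: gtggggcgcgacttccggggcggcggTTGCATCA
IARS, chr9:92293698-92293736, minus strand, 13 before the start: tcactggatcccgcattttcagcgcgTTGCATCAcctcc
MARS, chr12:57488038-57488071, plus strand, 4 before the start: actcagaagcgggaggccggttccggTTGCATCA
ATF3, chr1:212565190-212565249, plus strand, 191 before the start: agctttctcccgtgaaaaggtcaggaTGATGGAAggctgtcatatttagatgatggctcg
CARS, IARS and MARS share the same 8 matched letters on the other strand, TTGCATCA, close to the start. TARS carries them too, from base 3 after a start. MTHFD1L holds TGATGCAA once, which lies 129 or 90 bases before a start or 25 after another.

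Compartment was taken from the symbol alone, with names of the form of CARS2 read as mitochondrial and all others as cytosolic. An enzyme that serves both compartments from 1 gene is thus counted as cytosolic. Among the 13 cytosolic synthetases, 11 fell and none rose in limma, against the 36.5% of all loci that fell. No cytosolic enzyme rose at an unadjusted p under 0.05 or with the library adjustment of Ballgown. Their median log2 fold change was -0.52, with a range from -1.32 (WARS) to 0.06 (RARS). In 12 of 13 the KO libraries lay wholly below the WT libraries, which held for 39.8% of all loci. The summed FPKM of the 13 enzymes was 602, 634 and 631 in WT and 462, 461 and 451 in KO. KO libraries thus differed by little among themselves in this sum, and all lay below WT.

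WARS (chromosome 14, 100333788 to 100376805, minus strand), the enzyme for tryptophan, fell furthest of all 39 genes. It stood at 34.3, 42.3 and 44.1 FPKM in WT and at 15.5, 15.1 and 15.7 FPKM in KO. The KO libraries were tightly grouped, and WT replicate 1 was the lowest of its group. The KO mean of FPKM was 0.384 of the WT mean, and the log2 fold change of -1.32 ± 0.09 (adjusted p = 6.5e-06) stayed between -1.43 and -1.25 with any library left out. WARS is also known as an interferon-induced gene, and its 2 windows held no match to the ATF4 core. Reads of this gene may be shared with WDR25, which overlaps it by 287 exon bases on the other strand.

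CARS (chromosome 11, 3000922 to 3057613, minus strand) charges cysteine, and its match is the one placed 2 bases before the start. The WT libraries gave 10.8, 9.81 and 12.6 FPKM for it and the KO libraries 6.29, 5.73 and 4.98 FPKM, without overlap. Its log2 fold change was -0.85 ± 0.12 (adjusted p = 3.7e-04). Next in size were the enzymes for the branched-chain amino acids. IARS, for isoleucine, read 44.2, 55.3 and 48.3 FPKM in WT and 32.7, 33.4 and 28.3 FPKM in KO. VARS, for valine, read 41.7, 40.2 and 44.4 FPKM against 26.3, 28.4 and 26.3 FPKM. LARS, for leucine, read 20.6, 20.8 and 20.3 FPKM against 14.2, 13.7 and 12.9 FPKM. In none of the branched-chain enzymes did the groups overlap, and WT replicate 2 was the highest library for IARS. The log2 fold changes were -0.63 ± 0.09 for IARS (adjusted p = 5.2e-04), -0.62 ± 0.06 for VARS (5.2e-05) and -0.56 ± 0.06 for LARS (1.2e-04).

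MARS, for methionine, and QARS, for glutamine, followed closely. MARS averaged 65.4 ± 3.63 FPKM in WT and 44.5 ± 1.37 in KO (SD, n = 3), and changed by -0.54 ± 0.06 (adjusted p = 8.2e-05). QARS averaged 84.7 ± 0.842 FPKM in WT and 58.7 ± 2.78 in KO, a change of -0.52 ± 0.05 (adjusted p = 6.0e-05). Both sets of libraries were separate.

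Among the cytosolic enzymes that fell, the smallest falls were those of KARS, TARS, EPRS and GARS. KARS, for lysine, stood at 85.2, 86.5 and 87.5 FPKM in WT and 65.4, 59.3 and 67.9 FPKM in KO. TARS, for threonine, stood at 33.7, 34.0 and 34.2 FPKM and then 26.4, 29.4 and 29.0 FPKM. EPRS, a fused enzyme for glutamate and proline, stood at 28.6, 30.4 and 30.1 FPKM and then 25.5, 26.0 and 22.9 FPKM. In these enzymes the spread among KO plates exceeded that among WT plates, yet no KO value reached the WT range. GARS, for glycine, stood at 87.7, 86.6 and 83.8 FPKM in WT and 74.2, 72.0 and 72.5 FPKM in KO, also without overlap. The log2 fold changes were -0.43 ± 0.06 for KARS (adjusted p = 4.1e-04), -0.26 ± 0.06 for TARS (0.0057), -0.25 ± 0.07 for EPRS (0.0097) and -0.24 ± 0.05 for GARS (0.0032).

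DARS, for aspartate, and RARS, for arginine, did not pass the test. DARS averaged 46.7 ± 1.33 FPKM in WT and 43.9 ± 0.963 in KO (log2 fold change -0.09, adjusted p = 0.18). RARS averaged 25.9 ± 1.44 FPKM in WT and 27.1 ± 0.427 in KO (0.06, adjusted p = 0.39), and passed upward (0.13) when each library was centred on its median. With the library adjustment of Ballgown, CARS (-0.77, adjusted p = 0.12), IARS (-0.47, adjusted p = 0.18), KARS (-0.47, adjusted p = 0.077), TARS (-0.20, adjusted p = 0.18) and EPRS (-0.17, adjusted p = 0.28) did not pass. The other 6 that had fallen did, where 8.20% of all loci fell.

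Of the 8 mitochondrial synthetases, 2 fell, 1 rose and 5 did not pass, shares below the 36.5% of all loci that fell and the 21.2% that rose. Their median log2 fold change was -0.07, nearer to 0 than the median of all loci. Their FPKM summed to 96.1, 102 and 104 in WT and to 94.7, 101 and 93.6 in KO, so the groups overlapped in this sum. The shares called are not directly comparable with those of the cytosolic enzymes. Library medians were 8.50 to 10.8 FPKM for the mitochondrial enzymes and 27.2 to 44.4 FPKM for the cytosolic ones. At the same log2 fold change, MARS2 (-0.25 ± 0.10) did not pass and EPRS (-0.25 ± 0.07) fell.

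CARS2, the mitochondrial enzyme for cysteine, rose while its cytosolic counterpart fell. It read 10.7, 12.4 and 11.4 FPKM in WT and 14.7, 15.8 and 15.6 FPKM in KO, and each KO plate was above all WT plates. The log2 fold change was 0.39 ± 0.08 (adjusted p = 0.0025), and 0.49 with the library adjustment of Ballgown (adjusted p = 0.055). CARS2 shares 326 exon bases with ING1 on the other strand. SARS2, for serine, read 9.71, 9.59 and 10.9 FPKM in WT and 6.34, 6.55 and 7.39 FPKM in KO, without overlap. Its change was -0.51 ± 0.10 (adjusted p = 0.0019), and -0.44 with that adjustment (adjusted p = 0.13). SARS2 shares 1492 exon bases on its own strand with the annotated gene AC011455.2, so reads could be split between them.

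WARS2, for tryptophan, was the least stable of these calls. It read 5.58, 6.69 and 5.03 FPKM in WT and 4.58, 3.20 and 3.86 FPKM in KO, with the groups close but separate. The log2 fold change of -0.47 ± 0.16 (adjusted p = 0.028) did not pass without KO replicate 2 (-0.37), KO replicate 3 (-0.47), WT replicate 1 (-0.49) or WT replicate 2 (-0.38). It also did not pass after centring on library medians (-0.40) or with the library adjustment of Ballgown (-0.65).

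Groups overlapped for the other 5 mitochondrial enzymes. MARS2, for methionine, averaged 12.2 ± 1.10 FPKM in WT and 10.1 ± 0.999 in KO (-0.25, adjusted p = 0.054). IARS2, for isoleucine, averaged 37.2 ± 0.771 and 34.3 ± 2.32 FPKM (-0.12, adjusted p = 0.14). HARS2, for histidine, averaged 10.3 ± 1.12 and 10.1 ± 0.499 FPKM (-0.02, adjusted p = 0.88), and its sign turned with scaling or centring. LARS2, for leucine, had a log2 fold change of 0.10 (adjusted p = 0.47), and YARS2, for tyrosine, one of 0.22 (adjusted p = 0.19).

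**Figure D3:**
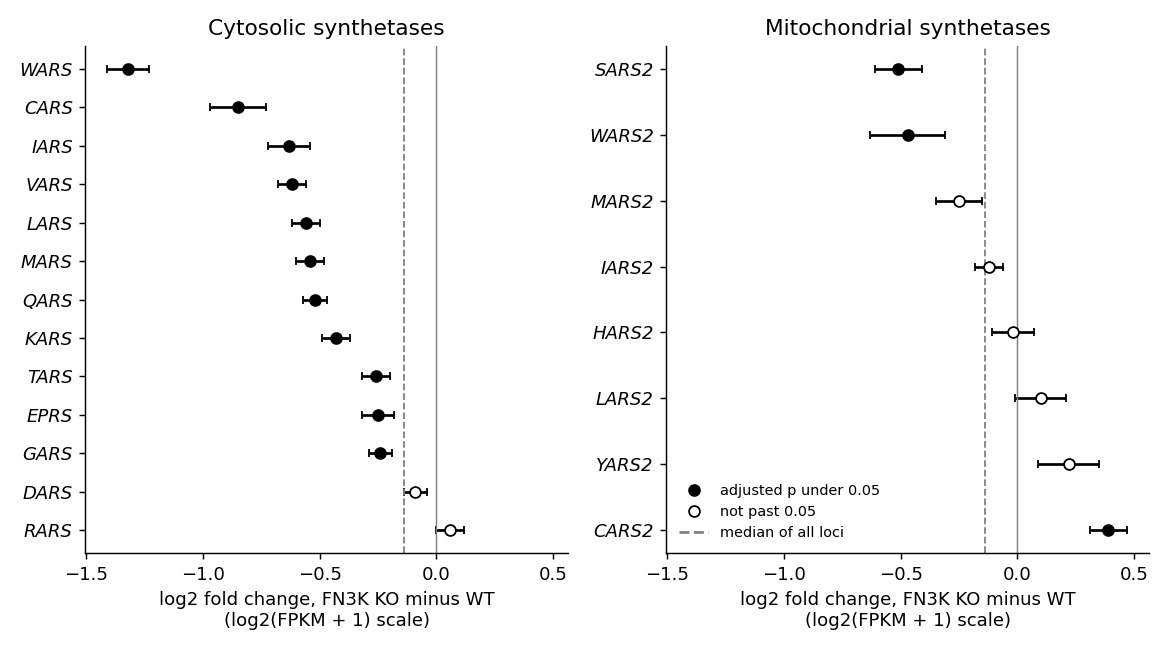
Log2 fold change (KO minus WT, log2(FPKM + 1)) of the 21 synthetases, cytosolic and mitochondrial, as points with bars of 1 SE, filled where the adjusted p was under 0.05, with a dashed line at the median of all loci. All cytosolic enzymes except RARS lie below 0, led by WARS at -1.32, while the mitochondrial ones run from -0.51 (SARS2) to 0.39 (CARS2).

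For 5 amino acids both the cytosolic and the mitochondrial enzyme were in the table, which allowed a ratio within each library. The CARS to CARS2 ratio of FPKM was 1.01, 0.794 and 1.10 in WT and 0.428, 0.363 and 0.319 in KO. The WARS to WARS2 ratio was 6.15, 6.33 and 8.77 in WT and 3.39, 4.73 and 4.06 in KO. For LARS to LARS2 it was 3.35, 2.91 and 2.96 in WT and 1.80, 1.79 and 2.06 in KO. IARS to IARS2 gave 1.32 ± 0.147 in WT and 0.917 ± 0.0319 in KO (SD, n = 3), and MARS to MARS2 gave 5.36 ± 0.280 and 4.42 ± 0.495. All 5 ratios were lower in each KO library than in any WT library, with the narrowest gap for MARS. A single pair of 3 against 3 libraries cannot reach a two-sided exact permutation p under 0.1.

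**Figure D4:**
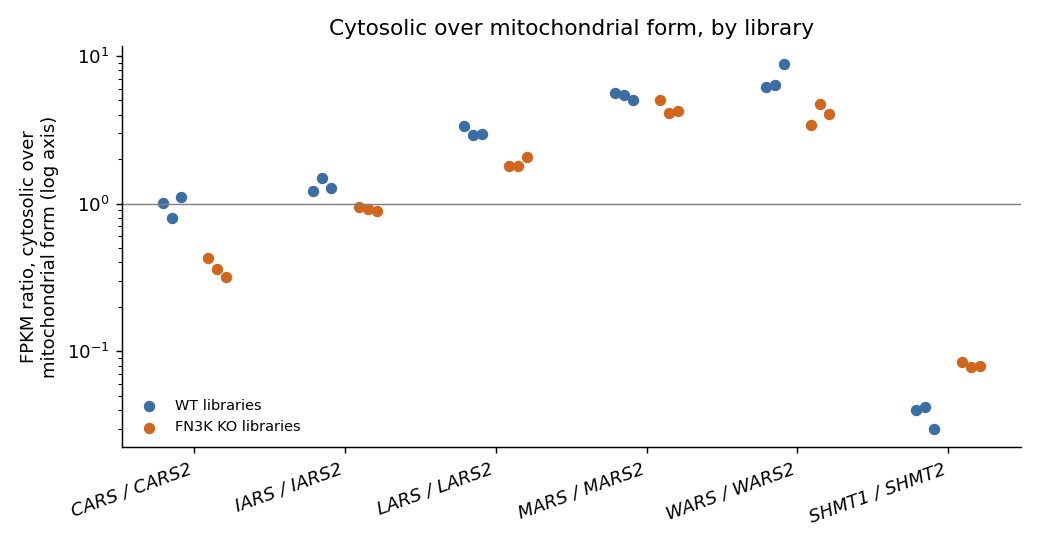
FPKM ratio within each library (points, log axis; WT and FN3K KO) of the cytosolic to the mitochondrial enzyme for the 5 synthetase pairs, and of SHMT1 to SHMT2. The synthetase ratios are lower in KO without overlap, and SHMT1 to SHMT2 is higher.

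Of the 10 enzymes of amino acid and one-carbon metabolism, 6 fell, against 36.5% of all loci, 2 rose, a share near the 21.2% of all loci, and 2 did not pass. Their median log2 fold change was -0.42. Their summed FPKM was 842, 813 and 831 in WT and 705, 713 and 718 in KO.

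ASNS (chromosome 7, 97852118 to 97872542, minus strand), which makes asparagine and is a standard readout of the amino acid response, fell. The WT libraries held 74.0, 64.5 and 66.8 FPKM and the KO libraries 45.6, 46.4 and 48.7 FPKM, far apart in relation to their spread. Its log2 fold change was -0.53 ± 0.06 (adjusted p = 1.5e-04), with a mean of FPKM 31.5% lower. The TGATGAAA match of ASNS, 68 bases before its start, is among the sequences above. ASNS shares 1985 exon bases on its strand with AC079781.5.

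The serine pathway moved unevenly along its steps. PHGDH, which catalyses its first step from a glycolytic intermediate, held 89.3, 76.3 and 80.8 FPKM in WT and 103, 100.4 and 105 FPKM in KO. PHGDH thus rose in KO, with all KO plates above all WT plates, at 0.32 ± 0.06 (adjusted p = 0.0028). PSAT1, the next enzyme and the most abundant of the 10, held 284, 269 and 265 FPKM in WT and 219, 216 and 225 FPKM in KO. PSAT1 fell by 0.31 on the log2 scale (SE 0.05, adjusted p = 0.0014), so that consecutive steps changed in opposite directions.

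Serine hydroxymethyltransferases, which turn serine to glycine and charge folate, also parted by compartment. SHMT2, the mitochondrial form, stood at 131, 144 and 148 FPKM in WT and at 95.3, 90.8 and 86.4 FPKM in KO. SHMT1, the cytosolic form and far less abundant, stood at 5.24, 6.05 and 4.39 FPKM and then 8.03, 7.07 and 6.84 FPKM. Neither gene had overlapping groups. SHMT2 changed by -0.63 ± 0.06 (adjusted p = 5.6e-05) and SHMT1 by 0.42 ± 0.13 (adjusted p = 0.02). The rise of SHMT1 did not pass without KO replicate 1 (0.36) or WT replicate 3 (0.32). The SHMT1 to SHMT2 ratio of FPKM was 0.0372 ± 0.00656 in WT and 0.0804 ± 0.00342 in KO (SD, n = 3).

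MTHFD1L, which releases formate from mitochondrial folate, had the largest fall among the enzymes on the log2(FPKM + 1) scale, although CTH matched it at a pseudocount of 0.1 (-0.81 for both). It was very even at 25.3, 25.3 and 25.0 FPKM in WT and 14.3, 15.0 and 13.8 FPKM in KO. The log2 fold change was -0.77 ± 0.06 (adjusted p = 1.4e-05), and the mean of FPKM was 43.0% lower. Its window holds the TGATGCAA match named above.

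The enzymes of transsulfuration, which carry homocysteine to cysteine, both fell. CBS, the first, read 31.6, 30.3 and 31.7 FPKM in WT and 17.1, 22.9 and 18.8 FPKM in KO. CTH, the second, read 6.10, 6.20 and 5.50 FPKM in WT and 2.98, 3.70 and 3.35 FPKM in KO. In each gene KO replicate 2 was the highest KO library, still well under WT. The log2 fold changes were -0.65 ± 0.10 for CBS (adjusted p = 5.1e-04) and -0.68 ± 0.13 for CTH (0.0024).

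The proline branch did not pass the test. ALDH18A1, its first enzyme, averaged 60.3 ± 2.80 FPKM in WT and 61.5 ± 2.06 in KO (0.03, adjusted p = 0.7). PYCR1, its last, averaged 136 ± 7.33 and 145 ± 4.95 FPKM (0.09, adjusted p = 0.2), and passed upward with 75th percentile scaling (0.14) or centring (0.16). With the library adjustment of Ballgown, where 8.20% of all loci fell, ASNS, MTHFD1L and PSAT1 still passed. SHMT2 (-0.53, adjusted p = 0.056), CTH (-0.66, adjusted p = 0.085), CBS (-0.51, adjusted p = 0.18), PHGDH (0.20, adjusted p = 0.21) and SHMT1 (0.30, adjusted p = 0.4) did not.

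**Figure D5:**
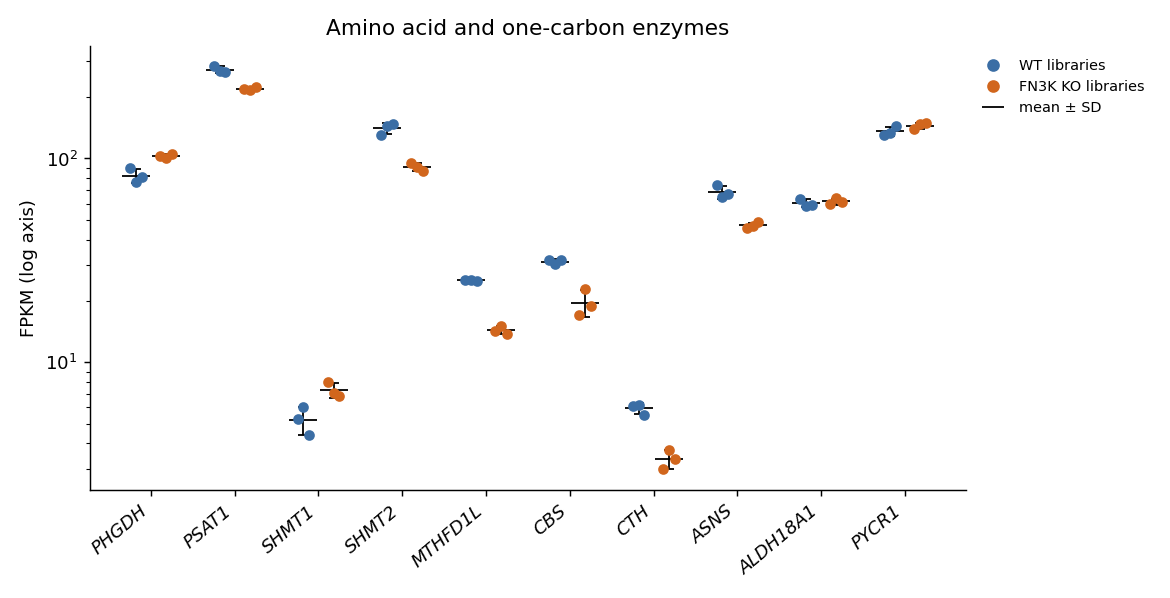
FPKM of the 10 amino acid and one-carbon enzymes in each library (points, log axis; WT and FN3K KO), with horizontal bars at the group means and vertical bars of 1 SD. MTHFD1L, CTH, CBS, SHMT2 and ASNS are lower in KO, PSAT1 less so, and PHGDH and SHMT1 are higher.

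Genes that work beside these members, listed by function, were read in the same fit. Of 16 gene names listed as partners of the synthetases, older names included, 6 were in the table, and 5 of them fell, against 36.5% of all loci. With the library adjustment of Ballgown, where 8.20% of all loci fell, 3 of the 5 still passed. XPOT, the nuclear exporter of tRNA, stood at 36.2, 39.8 and 38.4 FPKM in WT and 20.6, 21.6 and 19.9 FPKM in KO, a log2 fold change of -0.85 ± 0.06 (adjusted p = 8.4e-06). The scaffold proteins of the multisynthetase complex followed, with AIMP1 at -0.67 and AIMP2 at -0.51, and so did FARSA, a subunit of the phenylalanine enzyme, at -0.40 and QRSL1 of the mitochondrial glutamine pathway at -0.45. GATB, a subunit of the same complex as QRSL1, had 0.19 (adjusted p = 0.28). The multisynthetase complex holds, besides the AIMP proteins, EPRS, IARS, LARS, MARS, QARS, KARS, RARS and DARS, of which 6 fell as given above.

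Of 14 gene names listed for GCN2 and eIF2 handling, older names included, 8 were in the table. Of these 5 fell and none rose in limma, against 36.5% and 21.2% of all loci. None had a positive log2 fold change. With the library adjustment of Ballgown, where 8.20% of all loci fell, 1 of the 5, EIF2A, still passed. EIF2S3, the gamma subunit of eIF2, changed by -0.58 and EIF2A, a separate initiation factor, by -0.67. PPP1R15A and PPP1R15B, which direct the phosphatase that resets eIF2, changed by -0.56 and -0.46. EIF2B4, a subunit of the exchange factor of eIF2, changed by -0.23. GCN1, which activates GCN2, had -0.07 (adjusted p = 0.6), and EIF2B3 and EIF2B5 had -0.03 each.

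Among 23 other targets and partners of ATF4, 12 were in the table, with 11 that fell and 1 that rose, against 36.5% and 21.2% of all loci. With the library adjustment of Ballgown, where 8.20% of all loci fell, 2 of the 11, CEBPG and ADM2, still passed. So did the 1 that rose. The median log2 fold change of the 12 was -0.54. The C/EBP factors CEBPB (-0.68) and CEBPG (-0.61), partners of ATF4 at its element, fell. So did 6 amino acid carriers: SLC6A9 (-0.69), SLC7A1 (-0.67), SLC1A5 (-0.47), SLC7A11 (-0.44), SLC1A4 (-0.33) and SLC38A2 (-0.30). NUPR1 (-0.71), ADM2 (-0.75) and STC2 (-0.27) also fell. The exception was TXNIP, known also for its response to glucose, which stood at 0.397, 0.471 and 0.420 FPKM in WT and 6.49, 4.96 and 5.99 FPKM in KO (2.25 ± 0.22, adjusted p = 4.9e-05).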

How the data were processed

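Human HepG2 cells were profiled by RNA-seq in 3 WT and 3 FN3K KO libraries. The authors aligned reads with HISAT2 and assembled and quantified transcripts with StringTie 2.0.6 (the submitters' processing notes name GRCh38.p5) and deposited FPKM values per locus for use with Ballgown. The strand setting and the filter on loci are not given in the sources used here. No column of comparisons was used. No more than 2 of the 300 lowest loci shared a ratio of FPKM in any of 15 pairs of libraries (relative tolerance 0.0001), so reads could not be recovered, depth is unknown and no counting interval is given.

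FPKM plus a pseudocount of 1 was log2 transformed and tested with limma 3.58.1 (lmFit, eBayes with a variance trend) in R 4.3.3, with Benjamini-Hochberg adjustment over 6357 loci. The scripts were tested on simulated data. Coordinates and exon overlaps came from GENCODE version 29 through the transcript identifiers, and windows from RefSeq on GRCh38.p14, matched by symbol with older names (WARS for WARS1 and so on) resolved by a table. Per-library values were given for every called regulator and enzyme and for the called synthetases with the 5 highest and 5 lowest log2 fold changes, and other genes came from lists by function. The folate and methionine list is not reported here. The members and lists were chosen with earlier results of these data known. Other settings tried were 0.1 as pseudocount, a filter at a mean of 1 FPKM, 75th percentile scaling, centring on library medians, limma with no variance trend, a replicate block, a linear model with the Ballgown library term, a further limit of 1 on the log2 fold change, and the omission of each library. The median over the 39 genes was added after seeing the data. Python 3.11.15 with pandas 2.3.3, numpy 2.4.6 and matplotlib 3.10.9 was used.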

Additional observations from a re-analysis of the deposited data

How the results depend on the processing

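With the library adjustment of Ballgown 1127 loci passed in place of 3670 (606 higher and 521 lower, or 8.20% of loci lower), and of the 39 genes 10 fell and 1 rose. By group this left 6 synthetases lower and 0 higher, 1 regulator lower, and 3 enzymes lower and 0 higher. With a log2 fold change beyond 1 as well, 473 loci passed, of the 39 genes 2 lower and 0 higher (1 synthetase and 1 regulator). Centring on library medians gave 2 synthetases higher and a median of -0.28 for the 39 genes in place of -0.35, and limma without the variance trend gave 0 regulators higher. HARS2 turned to 0.03 with 75th percentile scaling, 0.05 with centring and 0.19 with the Ballgown adjustment, and ALDH18A1 to -0.01 with the last. With 1 library left out at a time, 2 to 4 of the 39 genes rose, 0 to 1 regulators and 1 to 2 enzymes, 22 to 23 genes fell, and HARS2 lay between -0.10 and 0.04. The pseudocount of 0.1 and the minimum mean of 1 FPKM changed no call among the 39 genes. The causes of these moves were not tested.

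A replicate block gave 3707 loci and, of the 39 genes, 25 lower (ATF5 and MARS2 in addition) and 4 higher. Same-numbered plates did not deviate together (r = 0.01, 0.01 and 0.05 across loci) and not every plate correlated best with its own number, so the numbers were not taken as pairs. Unknown depth limits the lowest genes, such as CTH, WARS2 and SHMT1.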

Other observations

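Genes of the unfolded protein response, which shares DDIT3 and ATF4 with the amino acid response, were read from a list of 11, of which 10 were in the table. Of these 8 fell, 4 of them beyond 1 on the log2 scale, and none rose in limma, against 36.5% and 21.2% of all loci. With the library adjustment of Ballgown, where 8.20% of all loci fell, 6 of the 8 still passed, and ERN1 and SDF2L1 did not. HSPA5, the main chaperone of the endoplasmic reticulum, stood at 550.4, 664 and 677 FPKM in WT and at 264, 264 and 262 FPKM in KO (-1.25 ± 0.08, adjusted p = 5.7e-06). HSP90B1 (-1.32), SEL1L (-1.25) and DNAJB9 (-1.10) fell alike, followed by the sensors ERN1 (-0.83) and ATF6 (-0.67). XBP1 had 0.06 (adjusted p = 0.38) and EDEM1 had -0.24 (adjusted p = 0.088).

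Of 11 other amino acid enzymes, 3 rose and 3 fell, near the shares of all loci (21.2% and 36.5%). Among them BCKDHA (-1.07) and BCAT1 (-0.70), which break down branched-chain amino acids, fell, and GLUD1 (0.41) rose. BCAT1 and ASS1 (-0.27 in limma) still passed with the library adjustment of Ballgown, where 8.20% of all loci fell.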
